A study of Mus musculus with 28 samples.

Results

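The transcriptome of drug-naive striatum was described in 6 C57BL/6J (B6) wild-type mice, the arrays labelled B6 wildtype littermate 1 to 6, which were taken from the 28 arrays of the series by their labels alone. C57BL/6J is the most widely used inbred laboratory mouse strain, and the striatum is the input nucleus of the basal ganglia. Each array held total RNA from the left and right striatal punches of 1 mouse, pooled, on the Affymetrix Mouse Gene 1.0 ST platform. All 6 mice were homozygous for the B6 allele across the congenic region of the study, were littermates of heterozygous carriers of the A/J segment, had received no drug and belonged to batch 1. Littermates 1, 5 and 6 were female and littermates 2, 3 and 4 male. Ages were 68 days in littermates 1 and 2, 66 days in littermates 3, 4 and 5 and 41 days in littermate 6, so age could not be separated from that 1 mouse. The other 8 B6 arrays, labelled B6 wildtype control, came from drug-naive mice of 61 to 63 days in batch 2 that were no littermates of carriers, and were used only to ask whether the same genes varied there.

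Most striatal neurons are spiny projection neurons that release GABA. Those of the direct pathway carry the D1 dopamine receptor and the peptides substance P and dynorphin, and those of the indirect pathway carry the D2 receptor and enkephalin. Dopamine acts on both through cyclic AMP, which adenylyl cyclase makes, protein kinase A reads and phosphodiesterases break down. Interneurons, glia, vessel cells and the terminals of cortical, thalamic and midbrain axons make up the rest of the tissue, and an axon terminal brings little messenger RNA with it. In bulk tissue, fewer cells of a type and less RNA per cell cannot be told apart.

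Values are the deposited log2 signals per transcript cluster, the probe set for a gene, and every spread is an SD over the 6 mice in log2 units. For each of 19938 genes the cluster of highest mean was kept among those annotated with a single symbol. The rank runs from 1 for the highest mean, and a percentile is the share of genes with a lower mean. A signal also depends on how well a gene's probes bind, so ranks order array signals and not transcript numbers. The Y-linked gene Sry shows this, since its cluster read 8.32, 8.46, 8.34, 8.35, 8.34 and 8.23 in littermates 1 to 6, above the median gene in the 3 females too, which lack the gene. Levels had a median of 7.83 over genes and ran from 3.47 to 14.36. As a background reference served the 1190 olfactory and vomeronasal receptor genes, which work in the nose. Their 95th percentile was 6.98, and 13468 genes (67.5%) had a mean above it. Counts of list members above it are to be read beside that share.

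The 6 arrays were close to each other, with Pearson correlations over genes of 0.995 to 0.996 between any pair of mice, and array medians of 7.48 to 7.51. The median SD between mice was 0.0962, and 90% of genes lay between 0.0473 and 0.184, the 5th and 95th percentiles. An SD over 0.5 was seen in 15 genes. The number of arrays limits the precision of every SD.

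The label was checked against 5 genes of spiny neurons, and all 5 stood far above the background reference in every mouse. Ppp1r1b (cluster 10380862) encodes DARPP-32, an inhibitor of protein phosphatase 1 that protein kinase A switches on, and ran from 11.89 in littermate 5 to 12.11 in littermate 4, with a median of 12.04. Its mean was 12.03 ± 0.08 (SD, n = 6), at rank 159. Pde10a (cluster 10441680), the phosphodiesterase that marks spiny neurons, read 12.77, 12.64, 12.89, 12.89, 12.76 and 12.88 in littermates 1 to 6, the order used for all values below, a mean of 12.80 ± 0.10 at rank 40. Littermate 2 was lowest in Pde10a. Rgs9 (cluster 10392415), which speeds the shut-off of G protein signals, read 11.97, 11.88, 12.09, 12.10, 11.93 and 12.01, with a median of 11.99 and an SD of 0.09, at rank 169. Drd1 (cluster 10409319), the D1 receptor, read 10.69, 10.78, 10.79, 10.66, 10.60 and 10.52, a mean of 10.67 ± 0.10 at rank 1023. Drd2 (cluster 10585169), the D2 receptor, read 11.53, 11.66, 11.64, 11.76, 11.53 and 11.57, a mean of 11.62 ± 0.09 at rank 300. Both receptors were thus steady between mice, with SDs close to the median of all genes.

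The highest signals of the tissue came from genes of general cell function together with a few striatal ones. Penk, the precursor of enkephalin, stood at rank 8 of all genes and read 13.42, 13.46, 13.51, 13.53, 13.44 and 13.61, and Pcp4, a calmodulin-binding protein, stood at rank 9 with 13.43 ± 0.06. Around them stood Actb (cytoplasmic actin, 13.77 ± 0.06), Cst3 (cystatin C, 13.72 ± 0.06), Fth1 (ferritin heavy chain, 13.66 ± 0.10) and Snap25 (a protein of synaptic vesicle release, 13.35 ± 0.08). Rank 1 belonged to 1 of 3 clusters named Baiap2l1, at 14.36 ± 0.03, while the lowest of its clusters had a mean of 6.55, so that rank is the rank of 1 cluster. Gnb1, a G protein beta subunit, closed the first 15 at 13.21 ± 0.08. Littermate 6 had the highest value in 24 of the 30 genes of highest mean and in 71 of the first 100, against 18.6% of all genes, and its mean deviation over those 100 was 0.111.

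All 15 measured genes shared by both spiny neuron types, of 16 listed, lay above the background reference and had at least 90% of genes below them. Their median level was 11.50 and their median percentile 98.2. Pde1b, a calcium-dependent phosphodiesterase, had a mean of 12.30 ± 0.04 (rank 94). Gng7, a G protein gamma subunit of the D1 pathway, had 12.02 ± 0.11, and Adcy5, the main adenylyl cyclase of striatum, had 11.77 ± 0.06. The lowest of the 15 was Bcl11b, a transcription factor needed for spiny neuron differentiation, at 10.22 ± 0.06 with 91.2% of genes below it. Their median SD was 0.0781, against 0.0962 over all genes and 0.0912 over genes above the reference. Only 5 of the 15 exceeded the median SD of all genes, and none exceeded the 95th percentile of SDs. After another quantile normalization the list had 0.0915 and all genes 0.0942, a smaller gap. No comparison with genes of like level was made. Scn4b, a sodium channel beta subunit, varied most of the 15 and read 11.29, 10.91, 11.30, 11.31, 11.27 and 11.12, with littermate 2 lowest.

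**Figure D1:**
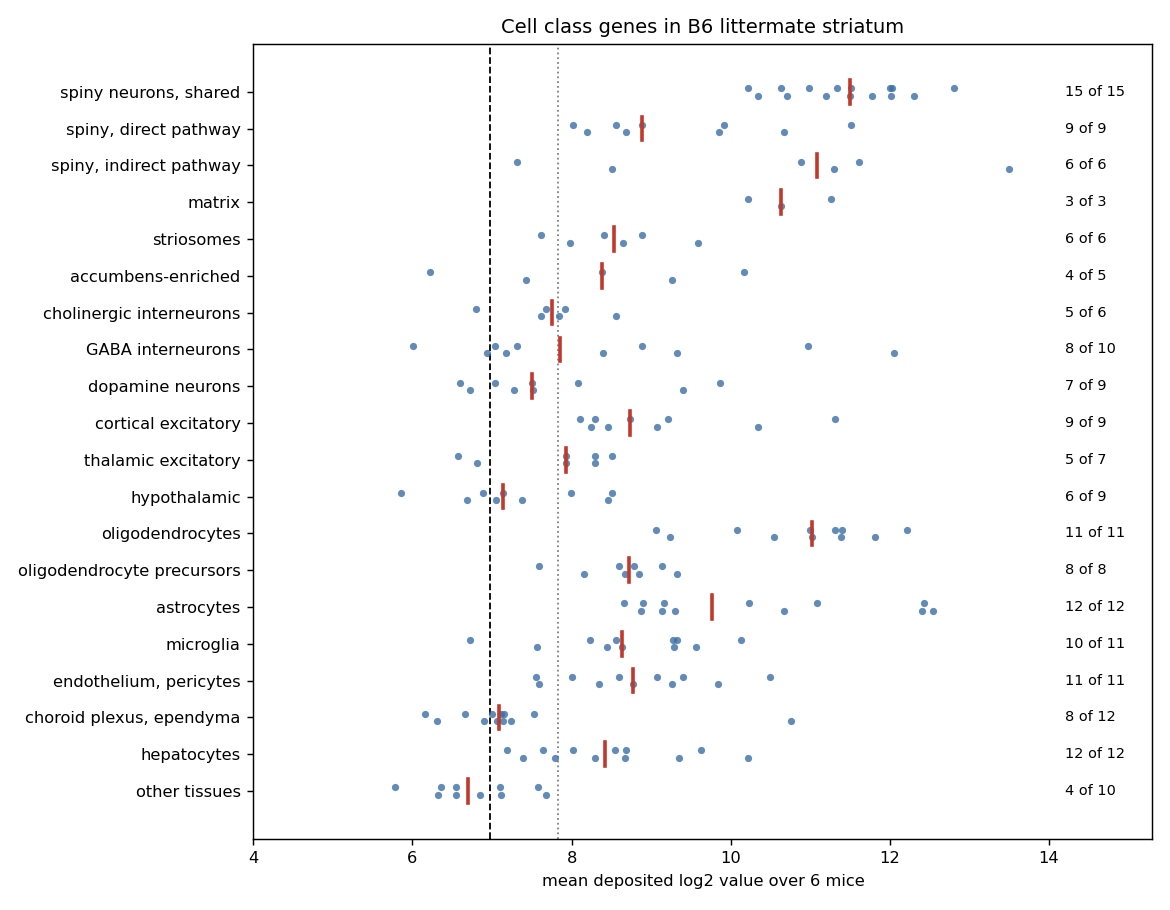
Mean deposited log2 value over the 6 mice (x axis) of each measured gene (dot) in 20 cell class lists, with the list median as a red bar. The dashed line is the background reference of 6.98 and the dotted line the median gene at 7.83, and the figures at the right give members above the reference of those measured. Genes shared by spiny neurons, with all 15 above the reference, lie furthest to the right as a list.

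Genes of the 2 spiny types covered a wide range of ranks. All 9 direct pathway genes lay above the reference, with a median percentile of 71.7. Tac1, the precursor of substance P, read 11.59, 11.38, 11.58, 11.60, 11.42 and 11.54, a mean of 11.52 ± 0.09 at rank 345. Chrm4, a muscarinic receptor that opposes cyclic AMP, had 9.92 ± 0.12, and Pdyn, the precursor of dynorphin, had 8.19 ± 0.17. Isl1, a transcription factor of the direct lineage, was the lowest at 8.02 ± 0.12. All 6 measured indirect pathway genes, of 7 listed, lay above the reference, and their median percentile was 96.8. Beside Penk and Drd2 stood 2 receptors with no accepted natural ligand. Gpr52 had a mean of 11.29 ± 0.14, and Gpr6 read 10.82, 11.11, 10.99, 11.00, 10.69 and 10.69, with the 3 males highest, a difference that did not pass the test of the sexes. Sp9, a transcription factor that indirect pathway neurons need, had 8.50 ± 0.06. Upb1, an enzyme of pyrimidine breakdown, was the lowest at 7.32 ± 0.27 and was above the reference in every mouse but littermate 5. In the 8 B6 controls of batch 2 its SD was 0.864, and 0.391 without control 1. The part of the authors' adjustment between batches in its level was not tested.

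The striatum is also divided into striosomes and the surrounding matrix. All 3 matrix genes had at least 90% of genes below them, led by Calb1, the calcium-binding protein calbindin, at 11.26 ± 0.12. Epha4, an ephrin receptor, followed at 10.63 ± 0.13 and Id4, an inhibitor of bHLH factors, at 10.22 ± 0.11. Of the 6 striosome genes, all above the reference, none reached that range: Lypd1, a modulator of nicotinic receptors, was highest at 9.59 ± 0.14, and Oprm1, the mu opioid receptor, lowest at 7.62 ± 0.16. Of the 5 measured genes that are stronger in nucleus accumbens than in dorsal striatum, 4 lay above the reference. Peg10, an imprinted gene of retrotransposon origin, read 8.90, 9.69, 9.01, 9.06, 9.22 and 9.65, Crym, a thyroid hormone binding protein, read 9.98, 10.36, 10.11, 9.94, 10.22 and 10.44, and Dlk1, a Notch ligand relative, read 8.25, 8.69, 8.22, 8.38, 8.16 and 8.58. Littermates 2 and 6 were highest in all of these 3 genes. Over the 5 genes their mean deviation from the mean of the 6 mice was 0.262 and 0.206, and it lay between -0.147 and -0.0851 in the other mice.

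Interneurons are few in striatum, and their genes ranked lower. Of 6 measured cholinergic genes, 5 lay above the reference, and the median percentile was 48.7. Slc5a7, the choline transporter, had 8.55 ± 0.19, Slc18a3, the vesicular acetylcholine transporter, 7.92 ± 0.14, and Chat, the enzyme that makes acetylcholine, 7.85 ± 0.10. Zic4, a transcription factor, was below the reference at 6.80 ± 0.11. Of 10 measured genes of GABA interneurons, 8 lay above it. The peptide genes of 1 interneuron type stood out in rank, with Sst (somatostatin) at 12.05 ± 0.18, rank 151, and Npy (neuropeptide Y) at 10.97 ± 0.14, rank 704. Pvalb, the calcium-binding protein of fast-spiking interneurons, read 9.39, 8.67, 8.87, 9.58, 10.05 and 9.35. Calb2, calretinin, read 6.67, 6.89, 6.65, 6.78, 7.65 and 7.58. Littermates 5 and 6 stood apart from the other 4 mice in Calb2, while Pvalb was highest in littermate 5 and lowest in littermate 2.

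Genes of neurons whose axons reach the striatum, or that lie next to it, were measured as well. Slc17a7, the vesicular glutamate transporter of cortical neurons, read 11.40, 11.49, 11.52, 10.95, 11.10 and 11.41, a mean of 11.31 ± 0.23 at rank 476. All 9 measured cortical genes, of 10 listed, were above the reference. Tbr1, a transcription factor of deep cortical layers, read 9.33, 9.29, 9.49, 8.94, 8.91 and 9.31, and Neurod6, another cortical factor, had 8.24 ± 0.25. The median SD of the 9 was 0.202, and 7 of them exceeded the median SD of all genes. Littermate 3 was highest in 5 of the 9 and littermate 4 lowest in 5, with mean deviations of 0.164 and -0.229. Without littermate 4 the median SD was 0.115.

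Of 7 thalamic genes 5 were above the reference, against 67.5% of all genes. Slc17a6, the vesicular glutamate transporter of thalamic neurons, read 6.84, 6.80, 6.20, 6.63, 7.49 and 6.91, below the reference in 5 mice and above it in littermate 5. Tcf7l2, a transcription factor of thalamus, read 8.11, 8.17, 8.16, 8.18, 8.64 and 8.46, and littermate 5 was again highest. That mouse was highest in 4 of the 7 genes with a mean deviation of 0.256, and without it the median SD of the list went from 0.199 to 0.116. Of 9 measured hypothalamic genes 6 lay above the reference, close to the 67.5% of all genes, so the count tells little about them. Among the 6 were Avp (vasopressin, 7.99 ± 0.07) and Oxt (oxytocin, 8.46 ± 0.06). The median SD of the 9 was 0.0895. Among 9 genes of midbrain dopamine neurons the median percentile was 43.6. Th, which makes the dopamine precursor, read 7.98, 8.02, 7.98, 8.34, 7.96 and 8.22. Slc6a3, the dopamine transporter, had 7.28 ± 0.12, and Slc18a2, the vesicular monoamine transporter, was below the reference at 6.59 ± 0.16. Nr4a2 ranked highest of the list at 9.86 ± 0.35. It is also transcribed in cortical neurons, and the source of its signal here was not tested.

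Glial genes ranked in the order oligodendrocyte, astrocyte, precursor and microglia by median percentile. All 11 measured oligodendrocyte genes were above the reference, 8 of them with at least 90% of genes below. Mbp, myelin basic protein, had 12.21 ± 0.15 at rank 117. Mobp, another myelin protein, read 11.28, 11.25, 11.15, 11.30, 11.57 and 11.80, and Opalin, a late oligodendrocyte membrane protein, read 9.08, 8.61, 8.75, 9.16, 9.44 and 9.31. Littermate 6 was highest in 8 of the 11 with a mean deviation of 0.290, littermate 5 stood at 0.160, and littermates 2 and 3 were lowest at -0.190 and -0.178. All 11 exceeded the median SD of all genes, and 7 exceeded the 95th percentile. In the 8 precursor genes littermate 6 was also highest in 6, with a mean deviation of 0.200. Without littermate 6 the median SD went from 0.205 to 0.154 in the oligodendrocyte list and from 0.145 to 0.101 in the precursor list, and the SD of Mobp from 0.242 to 0.153. Littermate 6 was also the 41-day-old mouse and the mouse highest in most of the strongest genes, and the part of either in these values was not tested.

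Astrocyte genes were steadier. All 12 lay above the reference, at a median percentile of 85.0 and a median SD of 0.0872. Slc1a2, the main glutamate transporter of astrocytes, had 12.54 ± 0.06 at rank 66, Aldoc, an aldolase, 12.43 ± 0.09, and Glul, glutamine synthetase, 12.40 ± 0.08. Of 11 measured microglial genes 10 were above the reference. C1qb, a complement subunit, was highest and read 10.15, 10.12, 9.85, 10.30, 10.10 and 10.23, and Aif1, which encodes IBA1, was lowest at 6.72 ± 0.11. Littermate 3 was lowest in 7 of those 11, with a mean deviation of -0.132. All 11 measured genes of endothelium and pericytes lay above the reference. Vtn, vitronectin, had 10.49 ± 0.26 and Cldn5, the tight junction claudin, 9.41 ± 0.08.

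The choroid plexus makes cerebrospinal fluid in the ventricles next to the striatum, and it belongs to no striatal cell class. Of its 12 listed genes, ependymal ones included, 8 lay above the reference, against 67.5% of all genes. Their median percentile was 34.6 over the 12. Ttr, transthyretin, read 13.08, 9.72, 10.04, 10.19, 10.51 and 10.98, the largest SD of any gene above the reference that is not sex-linked. Kcnj13, a potassium channel of the same epithelium, read 8.51, 6.97, 7.20, 6.76, 6.93 and 7.04. Littermate 1 was highest in both and in 10 of the 12 genes, with a mean deviation of 0.458 against -0.174 to 0.0526 in the others. Without littermate 1 the SD of Ttr fell from 1.22 to 0.481 and that of Kcnj13 from 0.640 to 0.161, and the median SD of the list went from 0.150 to 0.0961. Sostdc1 and Otx2, further genes of choroid plexus, stayed below the reference at 6.31 ± 0.20 and 6.16 ± 0.09.

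Hepatocytes are not brain cells. All 12 hepatocyte genes lay above the reference, led by Alb (albumin), which read 10.24, 10.19, 9.58, 10.69, 10.38 and 10.20, and by Apoa1 and Apoa2, apolipoproteins, at 9.62 ± 0.17 and 9.35 ± 0.23. All 12 had an SD above the median of all genes. The mean over the 12 was 8.35 to 8.56 in the littermates, a narrow range, whereas it was 7.07 to 11.25 in the 8 B6 controls of batch 2, and 7.07 to 10.37 without control 1. The authors adjusted both batches to each other, a step that sets a gene's level in batch 1 partly from batch 2, and its part in these levels was not tested. Among 10 measured genes of pancreas, testis, kidney, lung, heart, skeletal muscle and pituitary, 4 lay above the reference, with Ckm, muscle creatine kinase, highest at 7.68 ± 0.10. Of 9 listed blood genes 3 were measured and 1 lay above the reference, Alas2, an enzyme of heme synthesis in red cells, at 7.19 ± 0.11.

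Dopamine receptor genes fell into 2 strong and 3 weak signals. Drd3, the D3 receptor, read 7.37, 7.99, 7.45, 7.73, 7.71 and 7.61, a mean near the median gene, and Drd5 and Drd4 had 7.24 ± 0.06 and 7.23 ± 0.08. Among muscarinic receptors, Chrm1 had 10.07 ± 0.06 and Chrm4 9.92 ± 0.12, and only Chrm5 (6.93 ± 0.10) was below the reference. All 4 opioid receptor genes were above it, with Oprd1, the delta receptor, highest at 8.96 ± 0.10. Cnr1, the brain cannabinoid receptor, read 10.36, 9.90, 10.32, 10.41, 9.93 and 10.02. Littermates 1, 3 and 4 were at 10.32 or more and littermates 2, 5 and 6 at 10.02 or less. Both sexes were on each side of that gap, and the 41-day-old littermate 6 was on the lower side. The part of age in it was not tested. Of 14 serotonin receptor genes 9 were above the reference, against 67.5% of all genes. Htr1b, which lowers cyclic AMP, had 10.40 ± 0.13, Htr2a 10.25 ± 0.19 and Htr2c 9.47 ± 0.20, both of these acting through phospholipase C, and Htr2b was lowest at 5.85 ± 0.07.

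Downstream of these receptors, Adcy5, Pde10a and Rgs9 each ranked first in their family. Of 12 measured G protein alpha genes 11 were above the reference, with Gnao1 at 12.93 ± 0.07 and Gnal, which couples D1 receptors to adenylyl cyclase in striatum, at 11.76 ± 0.07. Gnal read 11.82, 11.76, 11.68, 11.74, 11.70 and 11.87. Among 10 adenylyl cyclases Adcy5 ranked first and Adcy10, the soluble cyclase, last at 5.18 ± 0.11, the only one below the reference. All 5 measured protein kinase A subunits were above it at a median percentile of 98.1, with Prkar1b, a regulatory subunit, at 12.02 ± 0.10. All 18 listed phosphodiesterase genes were above it too. Behind Pde10a and Pde1b came Pde2a at 11.88 ± 0.05 and Pde7b at 11.61 ± 0.11. Of 17 measured RGS genes 15 were above the reference, and Rgs4 (11.58 ± 0.16) followed Rgs9. Rgs1 and Rgs18, which are known from blood cells, were the lowest at 5.19 ± 0.14 and 4.98 ± 0.11.

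**Figure D2:**
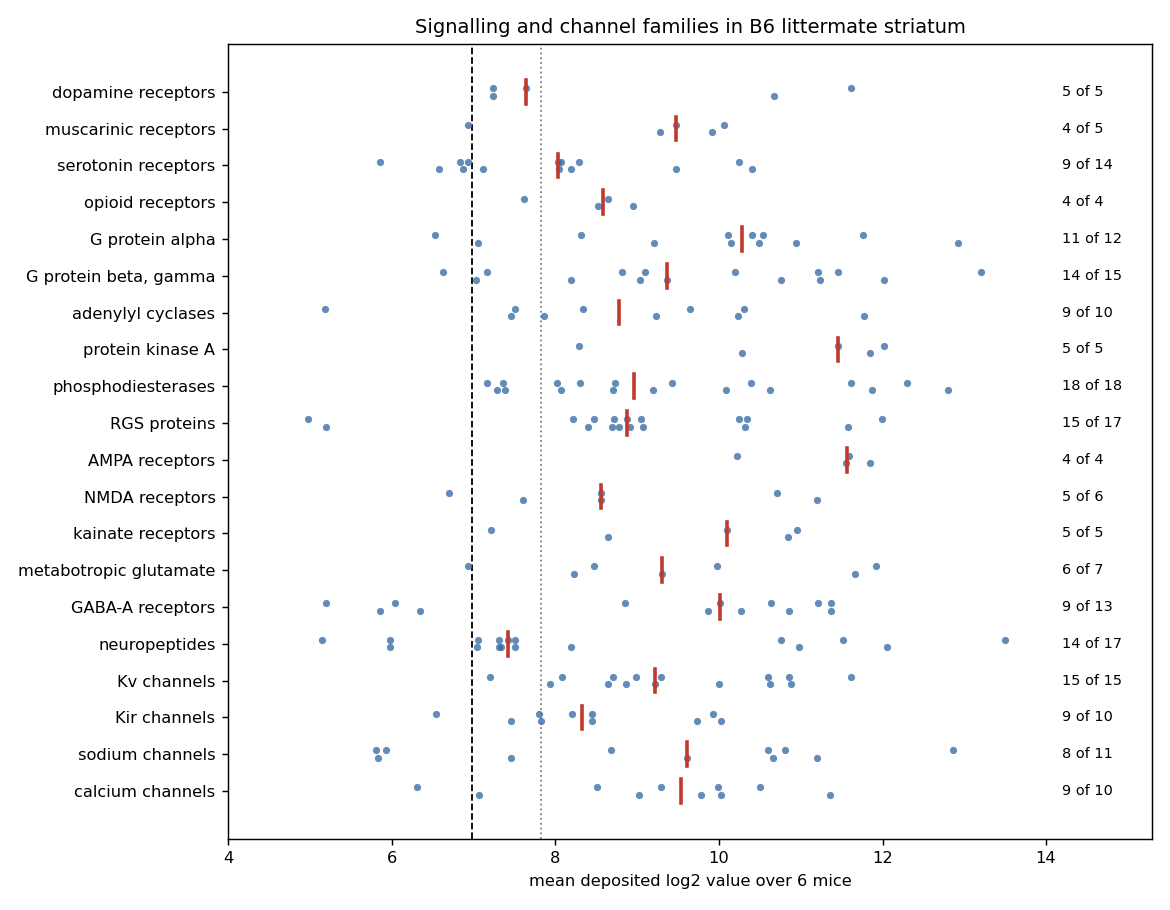
Mean deposited log2 value over the 6 mice (x axis) of each measured gene (dot) in 20 families of receptors, signalling proteins, peptides and channels, with the family median as a red bar. The dashed line is the background reference of 6.98, the dotted line the median gene at 7.83, and the figures at the right give members above the reference of those measured. All 4 AMPA receptor genes and all 5 kinase subunits lie above it, while families such as serotonin receptors, with 9 of 14, span it.

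AMPA receptors carry most fast excitation onto spiny neurons, and all 4 of their genes had at least 90% of genes below them, led by Gria2 at 11.85 ± 0.10. Grin2b, an NMDA receptor subunit, had 11.19 ± 0.12, while Grin3b was below the reference at 6.70 ± 0.09. Grm5, the metabotropic receptor that couples to calcium release, had 11.92 ± 0.06 and Grm3, which lowers cyclic AMP, 11.66 ± 0.14. Of 13 measured GABA-A receptor genes 9 were above the reference, against 67.5% of all genes. Gabra4, an alpha subunit typical of striatum, had 11.38 ± 0.09, and Gabra6, known from cerebellar granule cells, was lowest at 5.20 ± 0.08.

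Channel genes showed the same wide range. Scn2a, a sodium channel, had 12.86 ± 0.09 at rank 34, and Scn10a, known from sensory ganglia, 5.83 ± 0.14. The rank of Scn2a is that of the highest of its 14 clusters, of which the lowest had a mean of 9.47. Kcnd2, a channel of the A-type potassium current, had 11.61 ± 0.06. Of 19 voltage-gated potassium channel genes listed, 15 were measured, and all of these lay above the reference. Kcnj4, an inward rectifier of spiny neurons, had 9.93 ± 0.10. Cacna1e, the R-type calcium channel, ranked first of 10 calcium channel genes at 11.36 ± 0.08, and Cacna1f, known from retina, was last at 6.31 ± 0.15. Of 21 measured transcription factors of striatal development 20 were above the reference. Meis2 read 12.28, 12.21, 12.34, 12.37, 12.25 and 12.40, and Foxp1 had 11.34 ± 0.08, whereas Sp8 was below it at 6.21 ± 0.07.

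Neuropeptide genes ran from the top of the ranks to the bottom. Of 17 genes 14 were above the reference and 5 had at least 90% of genes below them, namely Penk, Sst, Tac1, Npy and Cck (10.76 ± 0.20). Crh, the releasing factor of the stress axis, was lowest at 5.15 ± 0.13. Tac2, the precursor of neurokinin B, was chosen after its values were seen and read 7.21, 8.01, 7.17, 7.43, 7.29 and 7.94. Littermates 2 and 6 were highest in it, as in Peg10, Crym and Dlk1.

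Machinery found in every cell gave a yardstick for these lists. The 57 ribosomal protein genes had a median percentile of 95.2, 35 genes of respiratory complex I 90.5, 40 proteasome genes 81.7 and 77 mitochondrial ribosomal genes 69.2. At the other end, 21 of 52 keratins and 34 of 86 cytochrome P450 genes were above the reference, at median percentiles of 28.4 and 23.8. Of the 1027 olfactory receptor genes 58 lay above the threshold drawn from them and of 163 vomeronasal genes 2, as the 95th percentile sets. The shared spiny neuron genes, at 98.2, ranked above each of these families by median. They were picked by name as spiny neuron genes, with earlier results of these data known, whereas the families were taken by symbol pattern. The lists were thus not drawn alike, and their order tests nothing.

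Immediate early genes, which neurons transcribe within minutes of activity, were uneven between mice. Calcium and cyclic AMP switch many of them on through the factor CREB, which binds the palindrome TGACGTCA or its core TGACG. The 250 bases before the annotated start of 4 of them are printed because these 4 had the largest SDs among the 10 immediate early genes with exactly 1 promoter in the RefSeq table of GRCm38.p6, and Nr4a3 came in through that choice after its values were seen. Each is written from 5′ to 3′ on the gene's strand, and capitals mark the core, on either strand (TGACG or CGTCA), with the palindrome in Dusp1 holding 2 overlapping cores.
Npas4 promoter, chr19:4989972-4990221, minus strand: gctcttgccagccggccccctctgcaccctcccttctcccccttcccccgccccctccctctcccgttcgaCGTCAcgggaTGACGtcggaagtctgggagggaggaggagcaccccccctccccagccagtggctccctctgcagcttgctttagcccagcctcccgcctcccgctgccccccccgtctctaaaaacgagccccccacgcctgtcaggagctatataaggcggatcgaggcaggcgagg
Nr4a1 promoter, chr15:101266596-101266845, plus strand: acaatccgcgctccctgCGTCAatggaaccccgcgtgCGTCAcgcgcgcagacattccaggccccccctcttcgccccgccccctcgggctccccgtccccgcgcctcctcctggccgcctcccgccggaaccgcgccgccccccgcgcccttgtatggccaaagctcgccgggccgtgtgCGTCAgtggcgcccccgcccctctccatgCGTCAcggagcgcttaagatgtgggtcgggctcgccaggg
Nr4a3 promoter, chr4:48045055-48045304, plus strand: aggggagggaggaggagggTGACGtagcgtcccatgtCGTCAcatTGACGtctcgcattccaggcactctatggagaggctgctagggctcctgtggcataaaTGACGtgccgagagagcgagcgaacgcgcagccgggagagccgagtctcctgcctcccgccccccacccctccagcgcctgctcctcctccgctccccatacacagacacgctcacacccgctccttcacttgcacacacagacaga
Dusp1 promoter, chr17:26508473-26508722, minus strand: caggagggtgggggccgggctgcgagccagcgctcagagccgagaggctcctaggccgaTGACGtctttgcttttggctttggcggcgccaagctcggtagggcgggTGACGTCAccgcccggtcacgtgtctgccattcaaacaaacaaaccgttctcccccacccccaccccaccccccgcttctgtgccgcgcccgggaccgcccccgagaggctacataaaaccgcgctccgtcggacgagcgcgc
The core was found 2 times before Npas4, 4 times before Nr4a1, 4 times before Nr4a3 and 3 times before Dusp1. Of the 10 promoters 9 held the core and 2 the full palindrome, while 17.8% and 1.55% of 32851 promoters of the same length in the table did. A match is a run of letters and no measured binding.

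Several of these genes were high and low in the same mice. Npas4, a transcription factor induced by neuronal activity, read 8.63, 8.37, 8.98, 7.80, 9.49 and 8.59. Nr4a1, an orphan nuclear receptor, read 9.73, 10.35, 9.51, 9.36, 10.32 and 9.67. Dusp1, a phosphatase of MAP kinases, read 9.59, 9.94, 9.48, 9.28, 9.98 and 9.65, so that littermate 4 was lowest in all 3 and littermate 5 highest or, in Nr4a1, just behind littermate 2. Arc, which acts on AMPA receptors at the synapse, read 9.50, 9.86, 9.52, 9.15, 10.07 and 9.54, and Nr4a3 read 7.92, 8.28, 7.66, 7.57, 8.19 and 7.91. Egr1, a zinc finger factor, read 10.44, 10.76, 10.51, 10.27, 10.77 and 10.63, and its spread was smaller than that of Arc. Over the 16 listed genes, 14 of them above the reference, littermate 5 was highest in 10 and littermate 4 lowest in 11. Their mean deviations were 0.266 and -0.269, littermate 2 stood at 0.137, and the other 3 mice lay between -0.0604 and -0.0168. The median SD was 0.193, and 15 of 16 exceeded the median SD of all genes. It was 0.148 without littermate 4 and 0.154 without littermate 5. Egr3, at 9.72 ± 0.10, varied less.

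**Figure D3:**
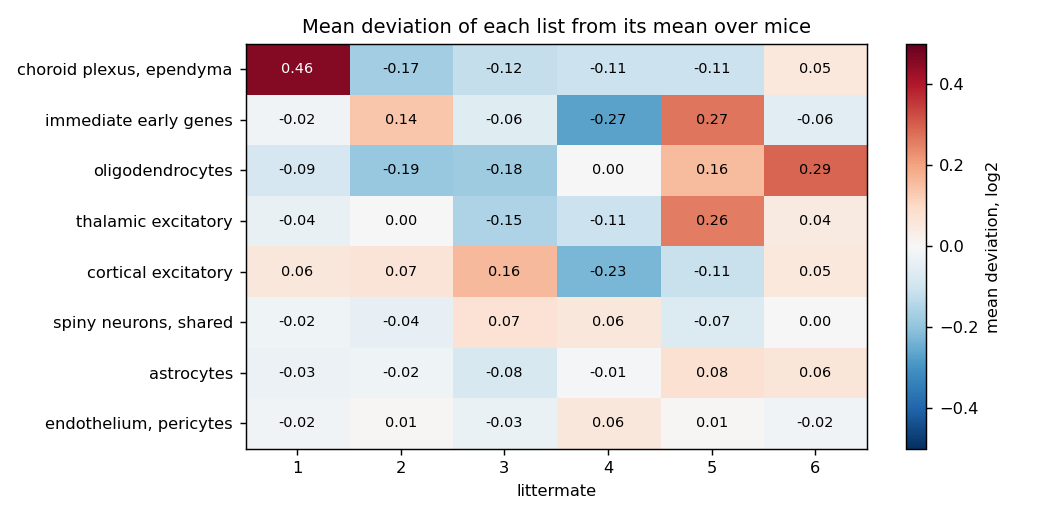
Mean deviation, in log2 units, of the measured genes of 8 lists from their own mean over the 6 mice, for each mouse (columns) and list (rows), as a colour and a printed value. Littermate 1 stands out in choroid plexus genes at 0.458, littermate 6 in oligodendrocyte genes at 0.290, and littermates 5 and 4 in immediate early genes at 0.266 and -0.269, while shared spiny neuron genes stay between -0.0681 and 0.0711.

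The genes of largest spread above the reference were a mixture of known kinds. Sex-linked Xist and Kdm5d led, with SDs of 2.67 and 1.52, and Ttr came next. The Y-linked Eif2s3y and Uty were left out of this order, since their means over both sexes lie below the reference. Ndst4, a heparan sulfate enzyme, read 7.37, 8.04, 5.71, 7.08, 6.46 and 7.28, with littermate 3 lowest and littermate 5 next. Agt, angiotensinogen, which astrocytes and liver make, read 9.15, 9.02, 8.16, 9.87, 9.80 and 9.99, and littermate 3 was again lowest. Several small RNA genes followed. Snora16a, a small nucleolar RNA, read 9.42, 8.53, 9.40, 10.04, 8.26 and 9.14, Scarna13 read 10.58, 9.41, 10.49, 10.76, 9.35 and 10.52 and Snora3 read 9.48, 9.19, 9.21, 10.25, 8.72 and 9.74. All 3 were highest in littermate 4 and lowest in littermate 5. Small RNA genes made up 12 of the 100 genes of largest SD, and 1.17% of the genes above the reference. Genes known from liver were frequent among the 100 too, such as Cyp2b9, Itih3 and Alb, with SDs of 0.403, 0.374 and 0.364. Of the hepatocyte list 3 genes were among the 100, and of the cytochrome P450 genes 5. Those 2 kinds made up 0.0891% and 0.252% of the genes above the reference. Genes known from neurons were among the 20 largest SDs as well. Tafa1, a secreted protein of the brain, read 9.51, 9.69, 9.31, 8.51, 8.76 and 9.22, Slc30a3, the zinc transporter of glutamate vesicles, read 9.49, 9.89, 9.88, 8.99, 8.98 and 9.27, and Cdh12, a neuronal cadherin, read 8.65, 8.83, 9.25, 8.04, 8.53 and 8.79. Littermate 4 was lowest in Tafa1 and Cdh12 and level with littermate 5 at the bottom in Slc30a3.

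For the 8 B6 controls too, the 100 genes of largest SD were taken from the 13468 genes above the reference in the littermates. The lists of the littermates and the controls shared 25 genes, which is 25% of each list, while each list held 100 of the 13468 genes. Besides Xist, Kdm5d, Ttr and Agt, most of the 25 were genes known from liver, so the overlap says little about other genes. Fgb had an SD of 0.279 in the littermates and 1.72 in the controls. Apoh had 0.283 and 1.91, and Cyp2b9 had 0.403 and 1.93. Both groups went through the same adjustment of batches, and its part in the overlap was not tested. Genes outside the overlap differed in their spread among the controls. Kcnj13 had an SD of 0.215 there, Npas4 0.296 and Snora16a 0.203, all smaller than in the littermates. The genes named here were chosen by their large SDs in the littermates. That choice alone tends to give smaller SDs in other arrays, so no difference between the groups follows. Pvalb had 0.455 there and 0.495 in the littermates, Tafa1 0.487 and 0.451, and Myl4 0.418 and 0.450. Ndst4 had 0.810 in the controls, but 0.154 without control 1.

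**Figure D4:**
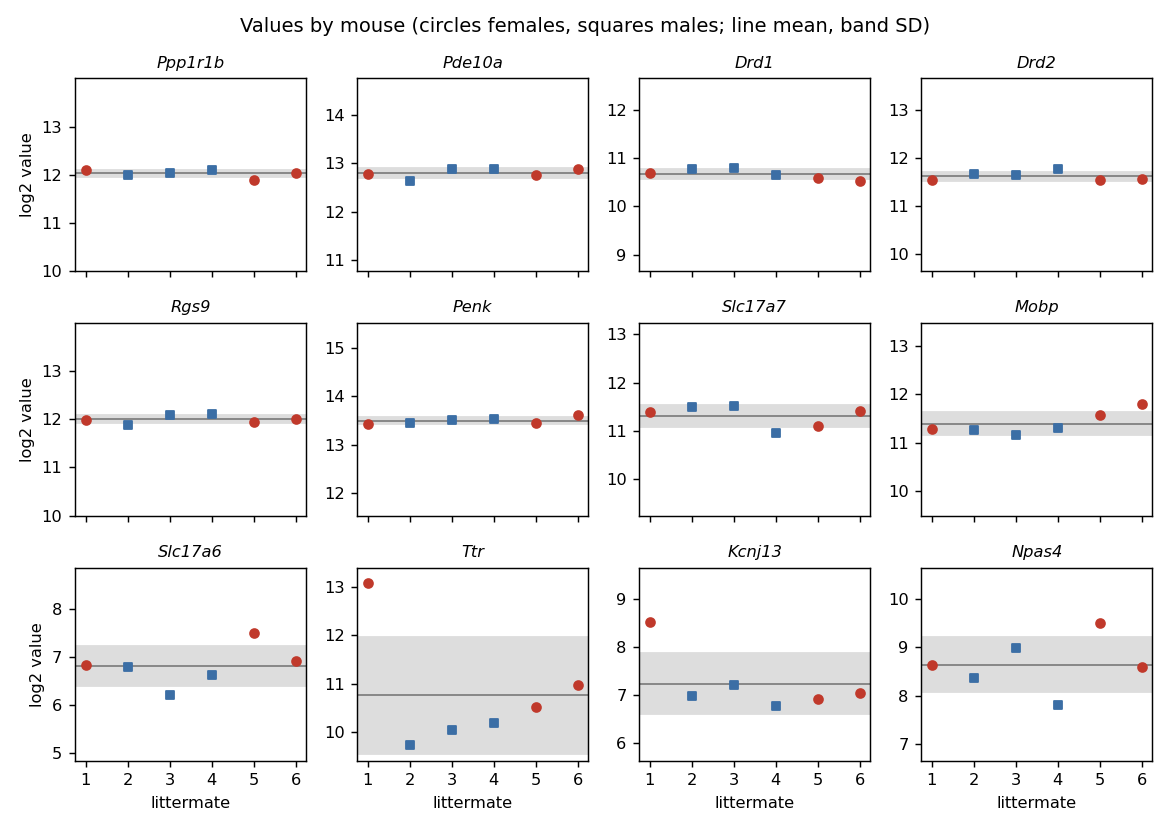
Deposited log2 value in each of the 6 littermates (x axis) for 12 genes, with females as circles and males as squares, the mean as a line and 1 SD to each side as a band. Every panel spans 4 log2 units. The 5 spiny neuron markers and Penk lie almost flat, while Ttr and Kcnj13 are highest in littermate 1, at 13.08 and 8.51, with Ttr between 9.72 and 10.98 in the other mice.

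Females and males, 3 mice each, were compared in all 19938 genes with limma. The test called 6 genes at a Benjamini-Hochberg adjusted p under 0.05, which is 0.0301% of genes, and 1290 genes (6.47%) had an unadjusted p under 0.05. Of the 6, 4 were higher in males (0.0201% of genes) and 2 in females (0.01%). Among the former were 3 Y-linked genes. Eif2s3y, a translation factor subunit, read 4.33, 9.41, 9.45, 9.11, 4.73 and 4.65, a difference of -4.75 (SE 0.112) for females minus males at an adjusted p of 1.77e-11. Uty, a histone demethylase relative, and Kdm5d, a histone demethylase, differed by -3.82 and -2.76. No male value overlapped a female one in these genes. Higher in females was Xist, the RNA that silences an X chromosome, which read 12.31, 6.92, 7.50, 7.79, 12.22 and 12.20, a difference of 4.84 (SE 0.156) at an adjusted p of 4.00e-10.

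The other 2 calls were small. Eif2s3x, the X-linked partner of Eif2s3y that escapes silencing, read 10.98, 10.45, 10.57, 10.42, 11.02 and 10.99. It was higher in all 3 females by 0.52 (SE 0.0721, limma adjusted p 0.0229), but the adjusted p lay between 0.0716 and 0.188 without any 1 of littermates 1, 2, 4, 5 and 6 and was 0.181 with age as a term. Slc17a2, a phosphate transporter, read 5.86, 6.68, 6.68, 6.63, 6.13 and 6.19, below the reference in every mouse. It was lower in females by -0.60 (SE 0.0875, limma adjusted p 0.0311), and the adjusted p was 0.0700 to 0.159 without any 1 of the 6 mice and 0.0610 with age as a term. Kdm6a, a further gene that escapes silencing, did not pass, at 0.41 (SE 0.0823, limma adjusted p 0.379).

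No gene of the spiny neuron lists was called, among 15 shared, 9 direct and 6 indirect pathway genes tested. Since only 0.0301% of all genes were called, lists this short could hardly hold a call, and its absence tells little about them. In the shared, direct and indirect lists the median differences for females minus males were -0.04, -0.07 and -0.07. Drd1 differed by -0.14 (SE 0.0756, limma adjusted p 0.786) and Drd2 by -0.14 (SE 0.0708, limma adjusted p 0.778). Of the 11 oligodendrocyte genes 0 were called, and their median difference was 0.22. An unadjusted limma p under 0.05 was seen in 5 of the 11, and in 6.47% of all genes. The 2 highest mice in that list, littermates 5 and 6, were both female. No smaller p than 0.10 can come from an exact permutation of 3 against 3 mice for a single gene, so limma's estimate of spread, shared over genes, carries these calls.

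**Figure D5:**
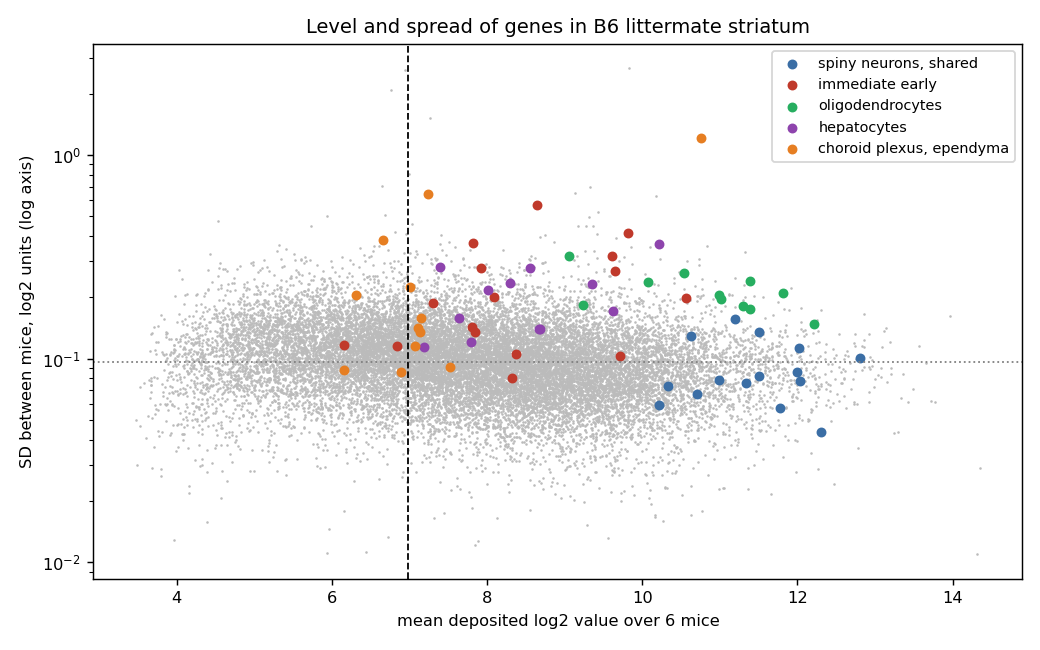
SD between the 6 mice in log2 units (y axis, log scale) against the mean deposited log2 value (x axis) for all 19938 genes in grey and for 5 lists in colour. The dashed line is the background reference of 6.98 and the dotted line the median SD of 0.0962. Oligodendrocyte and hepatocyte genes all lie above the dotted line, as do 15 of 16 immediate early genes, while 10 of the 15 shared spiny neuron genes lie below it.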

How the data were processed

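Total RNA of striatal punches was measured on 1-colour Mouse Gene 1.0 ST arrays, 1 array per mouse. The deposited log2 values are RMA summaries from Affymetrix Expression Console (no version given), per the submitters' processing notes. Per the deposited notes, probes over SNPs between B6 and A/J in the congenic region were masked and the 2 batches were then adjusted with ComBat, which rescales each cluster's level and spread. The authors' p-values and q-values compare genotypes and were not used here. Values were used as deposited. Of 35556 clusters, 21789 have 1 symbol in the platform annotation, 1621 several and 12146 none. Genes were named from the first kind, and 999 genes have over 1 such cluster. Columns were matched to mice by title, and 0 sample columns were unmatched.

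Levels, ranks and SDs were computed with pandas 2.3.3 in Python 3.11.15. The 58 lists hold 21 cell classes, 27 families and 10 families taken by symbol pattern. Of 502 entries named by symbol, 461 were measured, for 433 genes. The members and lists were chosen with earlier results of these data known. The sexes were compared with limma 3.58.1 in R 4.3.3 (lmFit and eBayes, 2-sided, Benjamini-Hochberg over 19938 genes, threshold 0.05), after a trial on simulated data. The labels give separate mice but not their litters, so p-values measure the spread between these mice.

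Named were the 5 markers, the 6 highest and 2 lowest means of each list, every member of a list of 8 or fewer, the 15 highest means of all genes, the 20 largest SDs above the background reference and the genes called between the sexes, with some left out. Promoters come from the RefSeq table of GRCm38.p6. Alternatives were other clusters per gene, other thresholds, leaving out each mouse or sex, another quantile normalization, other measures of spread and, for the sexes, other tests.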

Additional observations from a re-analysis of the deposited data

Results flagged for a closer look

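Among 159 sets of 6 values tested, namely the genes named above and the mean deviations of the cell class lists, 6 had 1 mouse far from the other 5 by Dixon's ratio at its 95% limit. Chance flags about 1 in 20 such sets, so 6 of 159 is no more than chance alone would give. Of the 6, 3 belong to the choroid plexus list and to littermate 1. Kcnj13 was 8.51 there against 6.76 to 7.20 in the others, Sostdc1 was 6.72 against 6.18 to 6.33, and the mean deviation of the list was 0.458 against -0.174 to 0.0526. These 3 are not separate results, since the list deviation includes both genes, and Kcnj13 was among the 20 largest SDs by which genes were named. Chrm1 was 10.19 in littermate 2 against 10.01 to 10.07. Id4 was 10.00 in littermate 6 against 10.20 to 10.32. Slc6a3 was 7.51 in littermate 4 against 7.17 to 7.30.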

How the results depend on the processing

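The count of 13468 genes above the background reference became 8410 with the 95th percentile of keratin genes and lay between 13400 and 13525 when each mouse was left out. The median level of the shared spiny neuron genes was 11.50, and 11.4 in females only (11.47 to 11.51 with each mouse left out). Their median percentile of 98.2 became 97.34 among genes above the reference and 97.87 in females only (98.12 to 98.23). Their median SD of 0.0781 became 0.0915 after another quantile normalization (0.07655 to 0.08472), and the same step gave 0.09422 over all genes. The median SD of all genes became 0.08158 as a scaled median absolute deviation and 0.09276 after removal of each sex's mean (0.09341 to 0.09599). Over all cell class lists, the median level moved beyond its spread in 1 of 105 settings, the median percentile in 21 of 105 and the median SD in 13 of 66. For families these counts were 9 of 185, 43 of 185 and 37 of 111. The 6 calls between the sexes became 4 with age in days as a term, 3 among genes above the reference and 0 with a plain t-test, which gave 1243 genes at an unadjusted p under 0.05 (4 to 9 with each mouse left out). Among genes above the reference Eif2s3y, Uty and Slc17a2 were not tested, since their means over both sexes lie below it. Of 63 values of the called genes over settings, 20 no longer passed and 0 reversed. The 25 genes of largest SD shared with the controls were 19 after removal of each sex's mean, 22 with no background filter and 26 without control 1. No paired analysis was possible because the values lie within 1 group and the 2 sexes share no replicate numbers. Signal over background limits the lowest genes, since array signals near 6.98 cannot be told from those of silent receptor genes.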
